A study of Mus musculus with 2 samples.

Results

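The genes described here encode the protein subunits of the mitochondrial respiratory chain and ATP synthase, together with assembly factors whose symbols begin in the same way. They were taken by symbol: mt-Nd, mt-Co, mt-Cytb and mt-Atp for the genes of the mitochondrial genome, and Nduf, Sdha to Sdhd, Uqcr, Cox4 to Cox8 and Atp5 for those of the nucleus. This gave 110 of the 31053 features, 13 mitochondrially encoded and 97 nuclear-encoded. The nuclear features carry 96 distinct symbols, because Atp5o occurs with a pair of gene identifiers. The rule reads symbols only and holds no threshold on a measured value.

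The tumours were MC38 tumours, a mouse colon carcinoma line, grown in the right flank of C57BL/6 mice. From 5 days after injection, at a mean size of 100 mm3, groups of 6 mice received PBS or SHP099 hydrochloride (5 mg/kg by mouth, daily) for 14 days. SHP099 is an allosteric inhibitor of the phosphatase SHP2, encoded by Ptpn11. The control library is labelled as untreated, while the protocol names PBS, and how many mice gave cells to each library is not stated. There was 1 single-cell library per group, so the groups have no replicate check, no test was made, and treatment cannot be told apart from any other difference between the libraries. Every interval below is an exact 95% interval that covers counting error only.

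The respiratory chain passes electrons from NADH and succinate to oxygen through complexes I to IV, and complex V uses the proton gradient so built to make ATP. Complex II is made wholly from nuclear genes, whereas complexes I, III, IV and V mix subunits of both genomes. The mitochondrial genes are transcribed as long joint precursors from each strand of a small circular genome. These are cut into messages, most of which are given short poly(A) tails, while each nuclear gene has its own promoter. Tumour cells and macrophages are both known to shift between glycolysis and respiration, with hypoxia favouring glycolysis.

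The 13 mitochondrial genes lie on chromosome M (GRCm38), 12 on the plus strand and mt-Nd6 on the minus strand. Several neighbours share bases, and a short read from such a stretch cannot be given to 1 gene by its sequence alone. The pair that bears most on the values below is mt-Atp8 and mt-Atp6, both subunits of complex V. The last 43 bases of mt-Atp8, which is 204 bases long, are also the first bases of mt-Atp6. The whole of mt-Atp8 is shown, with the part shared with mt-Atp6 in capitals (GENCODE M21 transcripts, plus strand, chrM:7766-7969, protein-coding, no introns).
mt-Atp8: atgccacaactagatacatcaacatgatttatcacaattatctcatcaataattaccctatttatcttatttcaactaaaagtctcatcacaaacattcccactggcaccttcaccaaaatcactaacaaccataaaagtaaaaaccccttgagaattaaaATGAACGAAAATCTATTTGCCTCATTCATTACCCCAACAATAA
The shared part is 21.1% of mt-Atp8 and lies at the 3′ end of the annotated gene. In complex I, mt-Nd4l shares its last 7 bases with mt-Nd4. The last 60 bases of mt-Nd4l (chrM:10114-10173, plus strand) are shown with that overlap in capitals.
mt-Nd4l: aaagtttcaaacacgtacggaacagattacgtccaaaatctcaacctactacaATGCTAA
The genes mt-Nd5 and mt-Nd6 share 14 bases on opposite strands, and mt-Atp6 and mt-Co3 share 1 base. Values of these neighbours are to that extent uncertain as values of single genes, most of all that of mt-Atp8, while the shared part of mt-Nd4l is 2.36%. For mt-Nd5 and mt-Nd6 this holds only where reads were not told apart by strand.

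The nuclear members are spread over 19 chromosomes. RefSeq promoters (GRCm38.p6, 250 bases before to 50 after the start) were found for 78 of the 96 nuclear symbols. Several letter patterns tied to factors known for respiratory genes were looked up on both strands of these promoters and of all 27025 in the table. The NRF1-type pattern GCGCATGC stood in 12 of 78 members (15.4%) and in 2.80% of all promoters. The ETS-type pattern CCGGAAG stood in 20 members (25.6%) and in 9.12% of all. The YY1-type pattern AAGATGG stood in 10 members (12.8%) and in 6.48% of all, and the hypoxia-type pattern ACGTG in 18 members (23.1%) and in 19.7% of all. A match is a description of letters, not a bound site. The 100 bases before the RefSeq start of 3 members named below are shown with the NRF1-type pattern in capitals: Sdhb, a subunit of complex II (chr4:140961171-140961270, plus strand), Atp5k, a subunit of complex V (chr5:108434400-108434499, minus strand), where the pattern and its reverse complement overlap, and Ndufa4, a subunit of complex IV (chr6:11907451-11907550, minus strand), in which it did not occur.
Sdhb: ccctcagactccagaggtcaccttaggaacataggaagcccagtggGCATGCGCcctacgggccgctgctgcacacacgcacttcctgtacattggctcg
Atp5k: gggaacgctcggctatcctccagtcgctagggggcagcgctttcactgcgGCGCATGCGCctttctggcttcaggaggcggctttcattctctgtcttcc
Ndufa4: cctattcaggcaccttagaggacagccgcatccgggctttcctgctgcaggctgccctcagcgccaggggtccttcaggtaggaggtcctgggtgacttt

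The control library held 8245 barcodes and 126218180 unique molecular identifiers (UMIs, each standing for 1 captured RNA molecule), and the SHP099 library 8263 barcodes and 112901642 UMIs. After filtering, 7689 cells remained in each, with a median of 9185 and 10733 UMIs. The libraries shared 100 barcode sequences. Cells were clustered without the genes described here, and clusters were named from marker lists. The largest class, 4115 control and 4249 SHP099 cells, had 2.75 and 3.02 counts per 1e6 UMIs (CPM) of Xist, an RNA of female cells. Its 6 epithelial markers summed to 0.269 and 0.130 CPM, and 6 of 8 MC38 markers lay above 10 CPM (629 and 572 CPM in sum). So did 6 of 8 fibroblast markers (1660 and 2181 CPM in sum), and the class is therefore called the Xist-negative cells and given no cell type name. Mononuclear phagocytes numbered 2540 and 2608 and T cells 518 and 398, and these 3 classes were compared gene by gene. For NK cells (97 and 54), dendritic cells (94 and 84), fibroblasts (84 and 49) and endothelial cells (30 and 45) levels are given. A few log2 ratios are shown for them as descriptions from few cells, and their genes were not counted by fold.

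In phagocytes the mitochondrially encoded genes took a larger share of RNA in the SHP099 library, while the nuclear-encoded members did not. The 13 mitochondrial genes made up 2.18% of all phagocyte UMIs in control and 3.08% in SHP099, a log2 ratio of 0.50 (interval 0.49 to 0.51). The 97 nuclear features made up 2.67% and 2.57%, a log2 ratio of -0.05. For each UMI of a nuclear member there were 0.817 mitochondrial UMIs in control phagocytes and 1.20 in SHP099 phagocytes.

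Xist-negative cells had the same order of the groups with a smaller gap. The mitochondrial genes took 3.09% in control and 3.60% in SHP099 (log2 0.22, interval 0.22 to 0.23), and the nuclear members 2.93% and 2.78% (log2 -0.08). Mitochondrial UMIs per nuclear-member UMI were 1.05 and 1.30. When cells were instead assigned by their own marker counts, 1180 and 780 cells had the MC38 list as their best and no Xist UMI. In this narrower set, chosen by MC38 markers, the mitochondrial log2 ratio was 0.11. Malat1, a nuclear RNA, stood at 17887 and 24423 CPM in the whole Xist-negative class and Fos, an immediate early gene, at 566 and 991 CPM. The part of either in the result was not tested.

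In T cells both groups lay closer between the libraries. The mitochondrial genes took 2.32% in control and 2.27% in SHP099 (log2 -0.03) and the nuclear members 2.64% and 2.73% (log2 0.05). The sign of the mitochondrial value changed with the settings, as 6 of 9 alternatives kept it. Haemoglobin RNA was 22.8 and 314 CPM in T cells. By cluster it was 25.5 and 17.3 CPM in the cluster with Cd8a, and 5.15 and 1258 CPM in the one with Cd4, Ikzf2 and Tnfrsf4. Ribosomal protein genes took 33.2% and 29.5% of T-cell UMIs. The part of these values in the result was not tested.

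Among the smaller classes, dendritic cells had values near those of phagocytes, with 2.23% and 3.08% mitochondrial UMIs (log2 0.46) beside 2.50% and 2.51% for the nuclear members. This class was named from markers of migratory dendritic cells. Its per-cell mitochondrial medians lay closer, at 1.95% and 2.35% after thinning (2.10% and 2.37% without), and 0 control and 4 SHP099 cells had over 10% mitochondrial UMIs. Its fibroblast markers summed to 75.4 and 558 CPM, its MC38 markers to 88.4 and 151 CPM, and ribosomal protein genes took 22.1% and 26.1% of its UMIs, and the part of these in the result was not tested. NK cells had 2.67% and 2.81%, and endothelial cells 3.01% and 2.90%. Fibroblasts had 2.09% and 1.82% (log2 -0.20), the lowest mitochondrial share of the 7 classes in both libraries, beside 28742 and 41026 CPM of Malat1, whose part was not tested. In the order of mitochondrial shares Xist-negative cells were first in both libraries, and phagocytes were 6 in control and 2 in SHP099. Nuclear shares covered a narrower range, from 2.24% in control fibroblasts to 2.93% in control Xist-negative cells, and from 2.13% to 2.78% in the same classes of the SHP099 library.

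**Figure D1:**
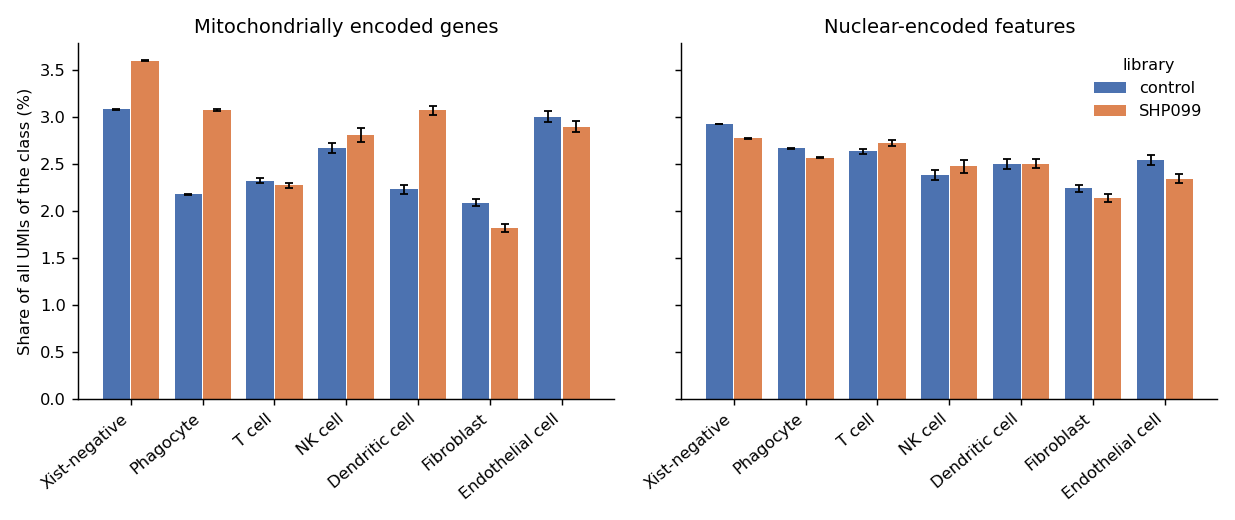
Share of all UMIs of a class (%) taken by the mitochondrially encoded genes (left) and the nuclear-encoded features (right), for 7 classes, 1 bar per library with exact 95% counting intervals. The gap between the libraries' mitochondrial bars is widest in phagocytes (2.18% and 3.08%) and dendritic cells (2.23% and 3.08%), while the nuclear bars of a class lie close together.

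Per-cell shares, with every cell thinned to 2000 UMIs, gave the same picture without the weight of large cells. The median phagocyte had 1.95% mitochondrial UMIs in control and 2.80% in SHP099 (2.02% and 2.82% without thinning), and the upper quartile in control was 2.70%, under the SHP099 median. The median Xist-negative cell had 3.05% and 3.60% (3.03% and 3.59% without thinning), and the median T cell 2.10% and 2.05% (2.16% and 2.05%). Nuclear members were taken per cell as a share of the UMIs that are not mitochondrially encoded. On that scale their medians were 2.60% and 2.58% in phagocytes (2.59% and 2.57% without thinning) and 2.91% and 2.75% in Xist-negative cells (2.92% and 2.76%). In T cells they were 2.55% and 2.78% after thinning but 2.46% and 2.53% without it. Thinning left out 230 and 210 phagocytes, 45 and 18 Xist-negative cells and 190 and 195 T cells.

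Cells with very high mitochondrial shares were few. Over 10% of UMIs were mitochondrial in 25 control and 46 SHP099 phagocytes and in 137 and 145 Xist-negative cells. With a limit of 10% per cell the phagocyte log2 ratio was 0.52. Cells with such high shares are often counted as damaged, and the part of damage in the result was not tested. Across cells of 1 class and library, these 2 shares were only weakly related: Spearman's rho was 0.18 and 0.14 in phagocytes and -0.12 and -0.05 in Xist-negative cells, as a description over cells that differ in depth.

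The phagocyte value was not alike in its 4 clusters. Cluster 2, led by the complement genes C1qa, C1qb and C1qc and by Ms4a7 of tissue macrophages, had 2.33% mitochondrial UMIs in control and 3.41% in SHP099 (log2 0.55, interval 0.54 to 0.56; 587 and 1009 cells). Cluster 4, led by Arg1 (arginase), Spp1 (osteopontin) and Pf4, had 2.01% and 3.03% (log2 0.59, interval 0.58 to 0.61; 1043 and 619 cells). Cluster 3, led by the monocyte genes Ly6c2, Plac8 and Ccr2, had 2.20% and 2.33% (log2 0.08, interval 0.06 to 0.10; 846 and 747 cells). Cluster 5, with 64 and 233 cells and the proliferation gene Mki67 at 133 and 199 CPM, had 2.90% and 3.40% (log2 0.23). The intervals of clusters 2 and 4 did not meet those of clusters 3 and 5, and without the monocyte-like cluster 3 the phagocyte log2 ratio was 0.60. Nuclear-member shares were lower in SHP099 in each of the 4: 2.69% and 2.49% in cluster 2, 2.66% and 2.56% in cluster 3, 2.60% and 2.50% in cluster 4, 3.28% and 2.91% in cluster 5. As the clusters were drawn from both libraries together, the split itself is a description.

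Within the Xist-negative cells, the 7 clusters all had the larger mitochondrial share in SHP099, with log2 ratios from 0.15 to 0.22. The range between clusters was wider than that between libraries: from 2.69% and 2.98% in cluster 10 to 3.83% and 4.44% in cluster 8. Cluster 10 was led by Bnip3, Adm and Ero1l, genes known to respond to low oxygen, with Bnip3 at 411 and 574 CPM. It also had the lowest nuclear-member share of the 7, 2.46% and 2.30%. Cluster 9, with the matrix genes Dcn, Dpt and Postn among its leading genes, had 3.68% and 4.17% mitochondrial UMIs, in 465 and 930 cells. In T cells, the Cd8a cluster had 2.38% and 2.42% and the cluster with Cd4, Ikzf2 and Tnfrsf4 1.91% and 1.80%. On further clustering, Cd8a sub-clusters went opposite ways, one with 116 and 78 cells at 2.26% and 2.65% (log2 0.23) and one with 56 and 33 cells at 2.49% and 2.15% (log2 -0.22).

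**Figure D2:**
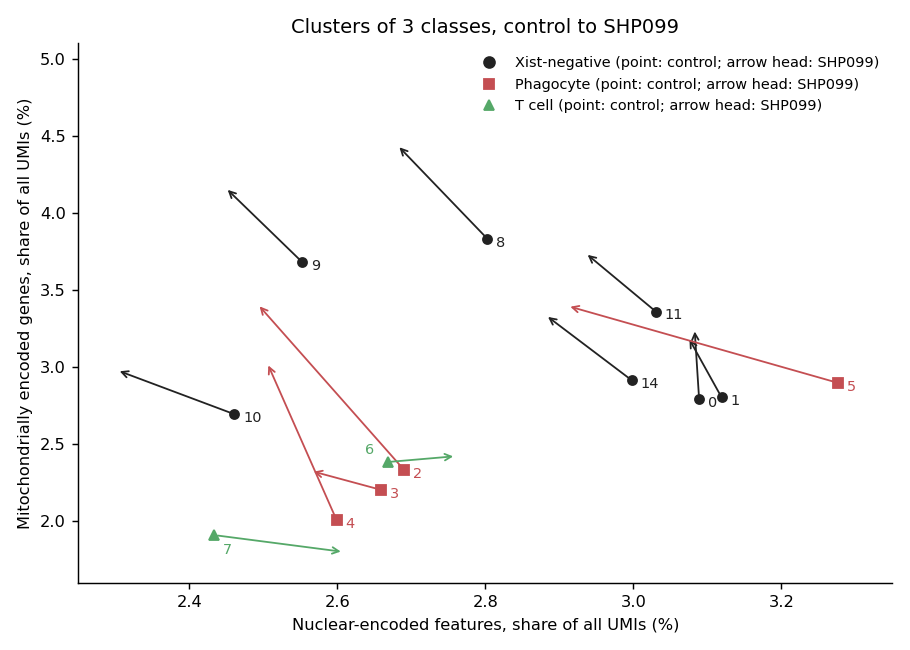
Mitochondrial share of UMIs (%) against nuclear-member share (%) for the numbered clusters of 3 classes, where the point is the control value and the arrow head the SHP099 value. Phagocyte clusters 2 and 4 move up the most (2.33% to 3.41% and 2.01% to 3.03%), cluster 3 hardly, and Xist-negative cluster 10 lies at the lowest nuclear shares of its class.

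Complex I takes electrons from NADH, and 7 of its core subunits are mitochondrially encoded. In phagocytes mt-Nd1 was 1929 CPM in control and 2376 in SHP099 (log2 0.30), the smallest ratio of the 13 genes, and mt-Nd2 was 482 and 675 (0.48). The log2 ratios of mt-Nd3, mt-Nd4 and mt-Nd5 lay between 0.36 and 0.46. The largest of the complex was that of mt-Nd4l, at 50.1 and 82.7 CPM (585 and 1020 UMIs; 0.72, interval 0.58 to 0.87). In Xist-negative cells mt-Nd1 was 2390 and 2645 CPM (0.15), and mt-Nd5 was the 1 mitochondrial gene with the lower value in SHP099, at 256 and 245 CPM (-0.06). In T cells mt-Nd1 was 2391 and 1972 CPM (-0.28, interval -0.36 to -0.20) and mt-Nd2 563 and 474 (-0.25), and 5 of the 7 complex I genes had the lower value in SHP099. The sum over the complex had log2 ratios of 0.38 in phagocytes, 0.16 in Xist-negative cells and -0.23 in T cells.

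Complex III hands electrons from ubiquinol to cytochrome c, and its cytochrome b, mt-Cytb, is its only mitochondrial subunit. In phagocytes mt-Cytb was 1843 CPM in control and 3049 in SHP099 (0.73, interval 0.70 to 0.75). It was 4852 and 5565 CPM (0.20) in Xist-negative cells and 1842 and 1957 (0.09) in T cells. In dendritic cells the log2 ratio was 0.78.

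Complex IV, cytochrome c oxidase, gives the electrons to oxygen, and mt-Co1, mt-Co2 and mt-Co3 form its core. In phagocytes mt-Co1 was 4475 and 5701 CPM (0.35), mt-Co2 2193 and 2800 (0.35) and mt-Co3 4152 and 5776 (0.48). In Xist-negative cells mt-Co3 had the largest log2 ratio of the 13, 0.37, at 3818 and 4921 CPM, and mt-Co2 had 0.11. In T cells the 3 genes lay between -0.06 and 0.04.

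In complex V, the ATP synthase, mt-Atp6 and mt-Atp8 belong to the membrane part through which protons pass. In phagocytes mt-Atp6 was 5431 and 8653 CPM (0.67, interval 0.66 to 0.69). The largest log2 ratio of any member in phagocytes was that of mt-Atp8, at 44.4 and 106 CPM from 518 and 1301 UMIs (1.24, interval 1.10 to 1.40). It held in each of the 4 phagocyte clusters, at 1.48 in cluster 2, 0.71 in cluster 3, 1.16 in cluster 4 and 1.07 in cluster 5. In Xist-negative cells mt-Atp8 was 138 and 167 CPM (0.27), and in T cells it had 63 and 66 UMIs (0.59, interval 0.08 to 1.12). The labels do not say how reads from the bases it shares with mt-Atp6 were assigned, and the part of that overlap was not tested.

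Counted by a fold of at least 1.5 among features with 10 CPM or more in either library, 4 of 13 mitochondrial genes were higher in SHP099 phagocytes (mt-Atp8, mt-Cytb, mt-Nd4l and mt-Atp6), where 4.3% of all 6798 features were higher and 1.93% lower. All 13 had log2 ratios above 0, beside a median of 0.05 over all features. In Xist-negative cells none of 13 passed the fold, where 1.12% of 7037 features were higher and 0.227% lower, and 12 of 13 ratios were above 0. In T cells 2 of 13 were past it, mt-Atp8 and mt-Nd6, the latter on 10 and 15 UMIs (1.06, interval -0.14 to 2.43), where 11.4% of 6939 features were higher and 6.9% lower. At 6.53 and 14.1 CPM, mt-Nd6 reached the floor of 10 CPM in the SHP099 library only, where it was higher. The T-cell ratios split into 6 above 0 and 7 below.

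**Figure D3:**
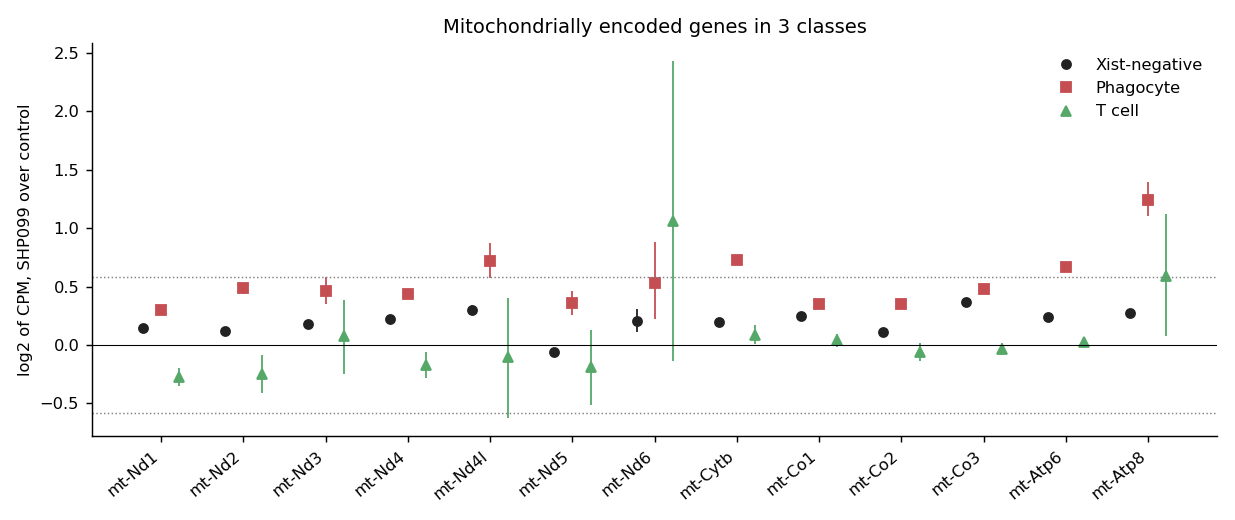
Log2 ratio of CPM, SHP099 over control, for each mitochondrially encoded gene in Xist-negative cells, phagocytes and T cells, with exact 95% counting intervals and a line at 0. The phagocyte points lie above 0 for all 13 genes, from 0.30 for mt-Nd1 to 1.24 for mt-Atp8, and the T-cell intervals are wide for mt-Atp8 and mt-Nd6.

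The make-up of the mitochondrial RNA differed between the phagocyte libraries as well as its amount. Of all mitochondrial UMIs in phagocytes, mt-Atp6 took 24.9% in control and 28.1% in SHP099, and mt-Cytb 8.46% and 9.90%. The share of mt-Co1 was 20.5% and 18.5%, and that of mt-Nd1 8.86% and 7.71%. In Xist-negative cells the shares of mt-Atp6 (30.8% and 31.1%), mt-Cytb (15.7% and 15.4%) and mt-Co1 (13.4% and 13.6%) lay closer together, and that of mt-Co3 was 12.4% and 13.7%. Xist-negative cells thus held more mt-Cytb and mt-Atp6 within their mitochondrial RNA than phagocytes in both libraries, and the SHP099 phagocytes lay between.

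Few nuclear members passed the fold in any class, while the share of all features that did was smallest in Xist-negative cells and largest in T cells. In Xist-negative cells 87 of 97 features had at least 10 CPM in a library, none passed 1.5-fold in either direction (1.12% and 0.227% of all features did), and 67 of the 87 ratios were below 0 (median -0.06, beside 0.02 over all features). In phagocytes 86 were at that level, 0 were higher and 1 was lower (4.3% and 1.93% of all features), and 63 of 86 ratios were below 0 (median -0.04, beside 0.05 over all). In T cells 84 were at that level, 0 were higher and 1 was lower (11.4% and 6.9% of all features), and 53 were above 0 (median 0.06, beside 0.07). The features under that level numbered 10, 11 and 13, and were isoforms of other tissues, assembly factors and the second Atp5o feature. The single member past the fold in T cells was the assembly factor Ndufaf7, with 22 and 8 UMIs (14.4 and 7.54 CPM; -0.89, interval -2.31 to 0.29). Ndufaf7 reached 10 CPM in the control library only, where it was higher.

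By complex, the nuclear sums in phagocytes had log2 ratios of -0.05 for complex I, 0.01 for complex II, -0.03 for complex III, -0.08 for complex IV and -0.05 for complex V, against 0.38, 0.73, 0.40 and 0.68 for the mitochondrial genes of complexes I, III, IV and V. Subunits that are assembled together thus had unlike ratios by the genome they come from. In Xist-negative cells the nuclear sums ran from -0.12 for complex V to -0.00 for complex III, and in T cells from 0.02 for complex V to 0.11 for complex II.

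Among nuclear subunits of complex I, Ndufb6, an accessory subunit of the membrane arm, had lower values in SHP099 in all 3 classes, with 254 and 203 CPM in Xist-negative cells (-0.32) and 154 and 137 in phagocytes (-0.17). Ndufa3, another accessory subunit, had higher ones in all 3, with 209 and 235 CPM in Xist-negative cells (0.17) and 370 and 428 in phagocytes (0.21). Ndufv3, a small subunit of the NADH-binding part, went opposite ways: 140 and 158 CPM in Xist-negative cells (0.18), 352 and 313 in phagocytes (-0.17). The core subunit Ndufs3 was 111 and 95.8 CPM in phagocytes (-0.21). Ndufa9, of the arm that binds ubiquinone, had 60 UMIs in each T-cell library (0.52, interval -0.01 to 1.07), so counting error alone spans 0 there. In phagocytes Ndufa10 was 79.9 and 87.7 CPM (0.13) and Ndufb8 310 and 274 (-0.18), and in Xist-negative cells Ndufa6 was 338 and 362 (0.10) and Ndufs4 83.0 and 71.9 (-0.21).

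In complex II, Sdha, the flavoprotein that oxidises succinate, was 56.7 and 63.2 CPM in phagocytes (0.15) and 33.9 and 36.1 in Xist-negative cells. The iron-sulphur subunit Sdhb, whose promoter is shown above, was 183 and 185 CPM in phagocytes, 114 and 107 in Xist-negative cells and 161 and 189 in T cells. The membrane anchor Sdhd was among the lowest ratios of Xist-negative cells, with 99.9 and 84.9 CPM (-0.23), and of T cells (-0.22). In complex III the hinge protein Uqcrh was 757 and 807 CPM in Xist-negative cells (0.09), and the core proteins Uqcrc2 and Uqcrc1 had low ratios in T cells (-0.29 and -0.23) with intervals that span 0.

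In complex IV, Cox5a was 362 and 297 CPM in Xist-negative cells (-0.29) and 591 and 534 in phagocytes, against 482 and 507 in T cells. Cox4i1, a regulatory subunit found in most tissues, had close values throughout: 1174 and 1160 CPM in Xist-negative cells, 1148 and 1121 in phagocytes and 1133 and 1142 in T cells. In complex V, Atp5b, the catalytic beta subunit, was 610 and 561 CPM in Xist-negative cells and 349 and 367 in phagocytes. Atp5g2, which encodes the c subunit of the proton-driven ring, was 1150 and 976 CPM in Xist-negative cells (-0.24), and Atp5d, of the central stalk, was 330 and 290 in phagocytes (-0.18). Atp5a1, the alpha subunit that alternates with Atp5b, was 176 and 191 CPM in phagocytes (0.12). Atp5k, a small membrane subunit, was 385 and 473 CPM in T cells (0.30, interval 0.12 to 0.47).

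A set of 13 core subunits drawn from all 5 complexes was also read on its own. Of their ratios 11 of 13 were below 0 in Xist-negative cells, from -0.29 for Cox5a to 0.09 for Sdha. In phagocytes 7 of 13 were below 0, a more even split than in the whole nuclear group, from -0.15 for Cox5a to 0.15 for Sdha. In T cells 8 of 13 were above 0, and the lowest was -0.26 for Ndufs1.

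**Figure D4:**
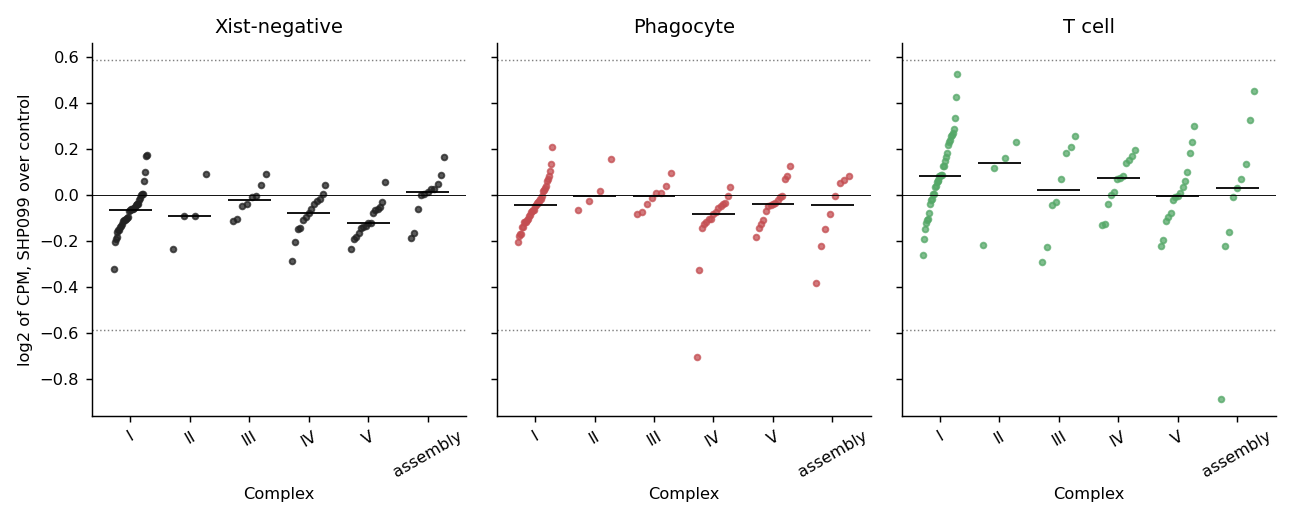
Log2 ratio of CPM, SHP099 over control, for each nuclear feature with at least 10 CPM in a library, by complex (assembly factors apart) and class. Short bars are medians, the solid line is 0 and the dotted lines are 1.5-fold. The points gather near 0, with medians of -0.06 in Xist-negative cells, -0.04 in phagocytes and 0.06 in T cells, and Ndufaf7 is the lowest point in T cells.

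Cell classes differed more in their nuclear members than the libraries did within a class. The classes are clusters drawn from these cells, so these values are a description. Taking a fold of at least 1.5 in both libraries, Xist-negative cells were higher than phagocytes in 17 of 89 nuclear members and lower in 10, which is 19.1% and 11.2% of them, beside 33.9% higher and 24.8% lower of all 8302 features. Their log2 ratio had the same sign in both libraries for 87 of the 89. Of the mitochondrial genes 6 were higher in Xist-negative cells (mt-Nd2, mt-Nd3, mt-Nd4l, mt-Nd5, mt-Atp8 and mt-Cytb) and none lower.

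Of the 17, 6 were assembly factors: Ndufaf2, Ndufaf4, Ndufaf5, Ndufaf6 and Ndufaf7, which help build complex I, and Sdhaf3, which helps complete complex II. A feature was counted if it reached 10 CPM in either class. Ndufaf5, Ndufaf6 and Ndufaf7 did so in Xist-negative cells only, so the floor admitted them through the class where they were higher. In the same way Cox4i2 and Cox7a1, among the 10 lower ones, reached it in phagocytes only. Ndufb9, an accessory subunit of complex I, was 524 and 504 CPM in Xist-negative cells and 238 and 235 in phagocytes. Ndufs5, Ndufa12, Atp5b, Atp5g1, Atp5g2, Cox6c and Cox8a were among the others. The 10 lower ones were Sdha, Sdhb, Cox5a, Cox4i2, Cox7a1, Ndufv3, Ndufa1, Ndufa3, Ndufa9 and Ndufs3, so both catalytic subunits of complex II were among those higher in phagocytes. Sdhaf2, which attaches the flavin to Sdha, had 32.2 and 32.5 CPM in Xist-negative cells and 29.98 and 27.0 in phagocytes, against 17.4 and 15.1 CPM in fibroblasts from 11 and 7 UMIs.

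Against T cells, Xist-negative cells were higher in 16 of 87 nuclear members and lower in 7 (18.4% and 8.05%), beside 29.3% and 23.8% of 8379 features. Of the 16, Ndufaf6 and Cox6a2 reached 10 CPM in Xist-negative cells only, so the floor admitted them through the class where they were higher. Phagocytes and T cells were the closest pair, with 5 of 87 nuclear members higher in phagocytes and 4 lower (5.75% and 4.60%), beside 20.9% and 23.9% of 7965 features. Of the 5, Cox4i2, Cox7a1 and Cox6a2 reached 10 CPM in phagocytes only, so they too were admitted through the class where they were higher. For this pair 0 of 13 mitochondrial genes were past the fold either way in both libraries. By library, 9 of 13 mitochondrial genes were lower in phagocytes than in T cells in control, while in SHP099 12 of 13 were higher. Of features not named mt-, per non-mitochondrial UMI, 4281 of 7631 were lower in control and 3461 of 7721 higher in SHP099. At least 1.5-fold higher in SHP099 were 4 of the 13 mitochondrial genes and 1949 of those 7721 features.

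The widest class differences were those of isoforms and their counterparts. Ndufa4, a subunit of complex IV despite its name (chromosome 6, 11900292 to 11907497), was 348 and 349 CPM in Xist-negative cells and 294 and 327 in T cells, but 108 and 110 in phagocytes. Within the Xist-negative cells it was 207 and 186 CPM in the low-oxygen cluster 10. In fibroblasts it was 382 and 207 CPM (log2 -0.88).

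Its paralogue Ndufa4l2 (chromosome 10, 127514967 to 127517154) is known as a hypoxia-induced gene and as a gene of pericytes. It was 249 CPM in control and 503 CPM in SHP099 fibroblasts, from 157 and 234 UMIs (log2 1.02, interval 0.72 to 1.32). It was thus the higher one where Ndufa4 was the lower one. These UMIs came from 29 of 84 control and 26 of 49 SHP099 cells, and the 5 cells with most held 55.4% and 59.8% of them. By comparison, 0.276% and 0.537% of phagocytes and 0.705% and 0.894% of the deeper Xist-negative cells had a UMI. The pericyte marker Rgs5 had 4 UMIs in control and 0 in SHP099 fibroblasts, and without the cell that held the 4 the control level was 244 CPM. The whole list of 6 pericyte markers summed to 776 and 1198 CPM in fibroblasts, higher in the library with more Ndufa4l2, with 4 of 6 above 10 CPM in each and 1 and 2 at 0. Its part in the result was not tested. In endothelial cells Ndufa4l2 was 21.7 and 111 CPM from 8 and 42 UMIs, but all 8 in control came from the 1 cell with Rgs5, and 37 of the 42 in SHP099 from the 8 cells with Rgs5. Xist-negative cells had 0.337 and 0.457 CPM.

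Cox4i2, the hypoxia-linked and lung-type counterpart of Cox4i1 (chromosome 2, 152754173 to 152765037), was 17.8 and 14.1 CPM in phagocytes, from 208 and 174 UMIs (log2 -0.33). T cells had 0 UMIs in both libraries. Its level differed between phagocyte clusters: 26.0 and 31.2 CPM in the Arg1 cluster 4, and 13.9 and 6.67 CPM in the C1qa cluster 2. In Xist-negative cells it was 0.0577 and 0.109 CPM, and in their low-oxygen cluster 10 it was 0.103 and 0.183 CPM.

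Cox6a2, the heart and skeletal muscle counterpart of Cox6a1 (chromosome 7, 128205435 to 128206387), was 45.7 and 44.5 CPM in Xist-negative cells, where 33.6% and 29.7% of cells had a UMI. In T cells 0.772% and 0.503% of cells had one, at median depths of 2389 and 2039 UMIs against 24503 and 20269. Its level in the low-oxygen cluster 10 was 114 and 122 CPM, well above that of the whole class. In phagocytes it was the 1 nuclear member past the fold, with 10.9 and 6.49 CPM from 127 and 80 UMIs (-0.70, interval -1.17 to -0.33). There it reached the floor of 10 CPM in the control library only, where it was higher. Dendritic cells had 166 and 102 CPM, from 9 and 8 cells, and these cells also held 61 of 64 and 36 of 36 UMIs of Siglech, a plasmacytoid dendritic cell gene.

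Other tissue isoforms were scarce. Cox7a1, of heart and muscle, was 15.8 and 14.8 CPM in phagocytes and 2.07 and 2.52 in Xist-negative cells. Cox6b2, a testis form, was 4.88 and 4.06 CPM in phagocytes. Cox7b2 had 22 and 2 UMIs in Xist-negative cells.

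**Figure D5:**
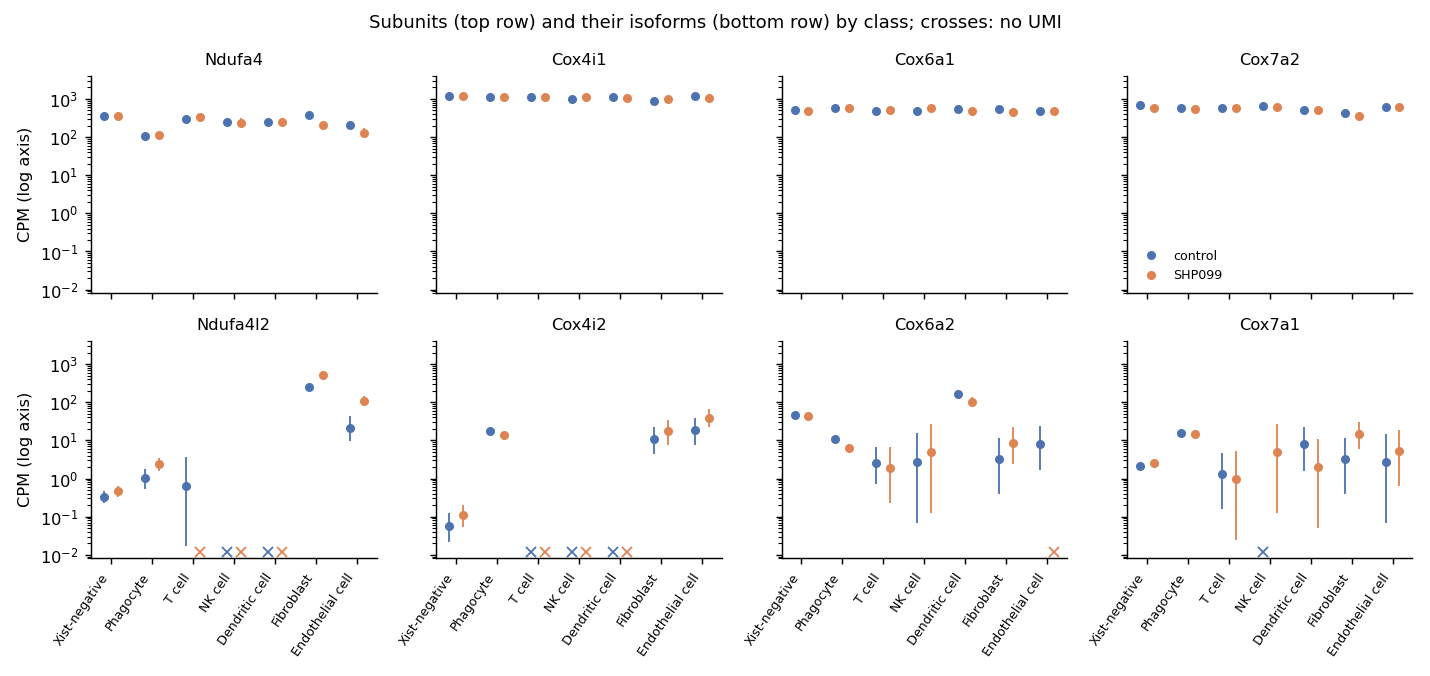
CPM (log axis) of common subunits (top row) and their isoforms (bottom row) in 7 classes, 1 point per library with exact 95% counting intervals, and crosses for no UMI. Ndufa4 is lowest in phagocytes (108 and 110 CPM), Ndufa4l2 is highest in fibroblasts (249 and 503 CPM), and Cox6a2 in dendritic cells (166 and 102 CPM).

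Other genes of mitochondrial energy metabolism were read from lists for the same phagocytes. In the list of glycolysis and its hypoxia-induced regulators, 18 of 19 genes had at least 10 CPM. Of these 0 were higher by 1.5-fold and 2 lower, beside 4.3% higher and 1.93% lower of all features. Their ratios were below 0 for 16 of 18 (median -0.35, beside 0.05 over all features). The 2 were the glucose transporter Slc2a1, at 97.0 and 46.8 CPM (-1.04), and the hypoxia-induced Bnip3, at 242 and 137 CPM (-0.82). The highest were the regulators Pfkfb4 (0.29) and Pfkfb3 (0.25). The glycolytic enzymes Gapdh (-0.47), Tpi1 (-0.46), Pkm (-0.45) and Ldha (-0.41) stood within the fold. In phagocytes the glycolytic list and the mitochondrial genes thus lay on opposite sides of 0. The clusters differ in level and in cells per library: the Arg1 cluster 4 (1043 and 619 cells) had 341 and 281 CPM of Bnip3 and 124 and 69.1 CPM of Slc2a1. The C1qa cluster 2 (587 and 1009 cells) had 120 and 60.5 CPM of Bnip3 and 65.5 and 26.5 CPM of Slc2a1. The monocyte-like cluster 3 had 207 and 135 CPM of the former and 92.0 and 69.0 CPM of the latter. Both were thus lower in SHP099 within these 3 clusters, and the class values also hold the shift of cells between them.

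The counts of the next lists stand beside 4.3% higher and 1.93% lower of all phagocyte features. Of the citric acid cycle, 15 of 15 genes were measured in phagocytes and 0 passed the fold (median 0.04). Of the mitochondrial ribosome, 74 of 78 were measured and 0 passed (median 0.07). Among the genes that copy and transcribe mitochondrial DNA and handle its RNA, 8 of 22 were measured and 1 was higher, Pnpt1, which encodes a mitochondrial RNA-degrading enzyme, at 9.94 and 17.5 CPM (0.79). Pnpt1 reached the floor of 10 CPM in the SHP099 library only, so it was counted through the library where it was higher. Of the nuclear regulators of mitochondrial genes, 7 of 10 were measured and 0 passed, with Myc at 0.35 and Nrf1 at -0.14. Gpd2, which feeds electrons from glycerol phosphate into the chain, was 54.3 and 34.1 CPM (-0.66). Cmc2, an assembly factor for complex IV outside the symbol rule, had 0.61, the 1 of 23 measured in its list past the fold, a share near the 4.3% of all features. Of coenzyme Q synthesis 5 of 13 were measured and 0 passed, and of ATP export and uncoupling 8 of 8 and 0. Among mitochondrial stress genes and proteases the protease gene Afg3l2 was 23.2 and 14.4 CPM (-0.67), 1 lower of 11 measured, and the superoxide dismutase Sod2 142 and 98.4 CPM (-0.53).

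In Xist-negative cells 0 genes of these lists passed the fold, where 1.12% of all features were higher and 0.227% lower. Of the mitochondrial ribosome 63 of 75 ratios were below 0 (median -0.07) and of the citric acid cycle 13 of 15 (median -0.10), on the same side as the nuclear respiratory members. Cycs, cytochrome c itself, was 743 and 561 CPM (-0.41). Bnip3 was 123 and 155 CPM in these cells (0.33), the opposite side from phagocytes. The low-oxygen cluster 10, with 366 and 492 cells, had 411 and 574 CPM, whereas clusters 0 (76.4 and 67.9), 8 (75.3 and 65.6) and 9 (94.7 and 91.9) had the lower Bnip3 value in SHP099. In T cells 1 of 17 measured glycolytic genes was higher, Pfkfb3 (0.82), and 1 lower, Pdk1 (-0.83), where 11.4% of all features were higher and 6.9% lower. Of the 17 ratios 13 were below 0 (median -0.16, beside 0.07 over all features).

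Of the values that bear on RNA quality in phagocytes, some lay close in the libraries and others did not. Malat1 was 23859 and 24021 CPM and the cytosolic ribosome list had a median log2 ratio of -0.02. Haemoglobin RNA was 2.06 and 21.6 CPM and Fos 1727 and 2216 CPM. The 8 MC38 markers summed to 104 and 84.5 CPM in phagocytes. Of these markers 1 in control and 2 in SHP099 lay above 10 CPM. The fibroblast markers, which Xist-negative cells also carry, summed to 145 and 157 CPM in phagocytes. The part of these values in the result was not tested.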

How the data were processed

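The deposited files hold filtered matrices of whole-number UMI counts, made by the authors. The submitters' processing notes name Cell Ranger and the mouse build GRCm38 (mm10), per the file headers the software version was 3.1.0, and the gene annotation used is not stated. Barcodes under 200 genes, then those over 20% of UMIs from genes named mt-, were dropped. This removed 99 and 103 (control and SHP099) and then 194 and 260, and Scrublet removed 263 and 211 doublets. Both libraries were clustered together (2000 variable genes without the genes described, ribosomal, haemoglobin or immunoglobulin genes; 30 components; 15 neighbours; Leiden resolution 1, seed 1). A cluster took the marker list whose mean log2 level lay highest over its 25th percentile among clusters, provided that at least 3 markers were in 10% of its cells and 2 times above the rest. Clusters with Xist under 0.1 of the median cluster formed the Xist-negative class, except cluster 16, left unnamed because it was shallow and had no marker of its class among its leading genes. All 4 phagocyte clusters took the macrophage list, and the dendritic cell class is 1 cluster with migratory dendritic cell markers. T and NK cells were split by a further clustering of those cells, and 2 clusters (12 and 16, 207 and 195 cells) stayed unnamed.

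UMIs were summed per class and library and divided by the class total (CPM). Ratios are log2 of SHP099 over control with 0.5 CPM added to both. Counts by fold took features with at least 10 CPM in a library and classes with at least 200 cells in each. The few ratios shown for smaller classes lie under that limit on cells. Levels are given from 30 cells. Intervals are exact 95% Poisson or conditional binomial ones. Named nuclear genes are the 5 highest and 5 lowest ratios per class among those with at least 50 CPM, the 5 widest class differences, fixed core subunits and isoforms, and in other lists the 2 highest and lowest; Ndufaf7, and the genes past the class fold, were named after their values were seen. Values of 1 gene that the rule names are not reported here. The members and lists were chosen with earlier results of these data known. Gene positions (GENCODE M21, GRCm38) matched 110 of 110 features. The code was tested on simulated data. Tools were scanpy 1.11.5 with anndata 0.12.19 under Python 3.11.15, pandas 2.3.3, numpy 2.4.6, scikit-learn 1.9.0, scipy 1.17.1, matplotlib 3.10.9 and python-igraph 0.11.9. Alternatives were other cell limits, doublets kept, other clusters, weights, totals, floors and priors.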

Additional observations from a re-analysis of the deposited data

How the results depend on the processing

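The mitochondrial log2 ratio kept its sign in 11 of 11 alternatives in Xist-negative cells, 12 of 12 in phagocytes and 6 of 9 in T cells, and the nuclear one in 11 of 11, 12 of 12 and 8 of 9. In Xist-negative cells the mitochondrial value was 0.24 without the limit on mt- UMIs, 0.23 with doublets kept, 0.11 with cells assigned by their own markers, 0.18 with each cell counted alike, 0.19 with clusters weighted alike, 0.24 with a total free of mt-, haemoglobin, ribosomal and Malat1 UMIs, and 0.20 without cluster 9. The nuclear value was -0.053 by own markers, -0.075 by cell, -0.048 by cluster, -0.070 over the non-mitochondrial total, -0.058 over the reduced total and -0.059 without cluster 9. In phagocytes the mitochondrial value was 0.51 without the limit, 0.52 at 10%, 0.48 with at least 1000 genes, 0.48 at resolution 2, 0.53 by cell, 0.37 by cluster, 0.52 over the reduced total, 0.60 without cluster 3 and 0.49 with the unnamed cluster 12. The nuclear value was -0.038 by cell, -0.10 by cluster, -0.040 over the non-mitochondrial total and -0.031 over the reduced total. In T cells the mitochondrial value was 0.00062 without the limit, -0.063 at 10%, 0.055 with doublets kept, 0.0077 by cell and -0.11 over the reduced total, and the nuclear value 0.022 by cell, 0.074 by cluster and -0.026 over the reduced total. The causes were not tested.

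The 1 nuclear member past 1.5-fold in phagocytes became 0 with a floor of 50 CPM, 4 with 1 CPM, 0 with a prior of 5 CPM and 0 without assembly factors and isoforms. In T cells the 1 nuclear member became 0, 4 and 0 at the floors of 50 and 1 CPM and without those genes, and the 2 mitochondrial genes became 1 with a floor of 50 CPM and 1 with a prior of 5 CPM. At least 1000 genes per cell left too few T cells for a value. Alternatives without clusters 3 or 9, with cluster 12, and without mt-Atp8, mt-Nd4l and mt-Nd6 were added after seeing the data. No paired analysis was possible because each group has 1 library and no test was made, so no replicate could be left out either.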
